A study of Mus musculus with 15 samples.

Results

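The contactin genes Cntn1 to Cntn6 and the contactin-associated genes Cntnap1, Cntnap2 and Cntnap4 were followed in ribosome-bound RNA from the cerebellum of mice of 5 postnatal ages. These 9 genes, of 19500 genes with a probe set of their own symbol, were picked by name, and each had 1 probe set. The mice carried the transgene Tg(Pcp2-L10a-Egfp), in which the promoter of the Purkinje cell gene Pcp2 drives a fluorescently tagged ribosomal protein L10a. RNA held by tagged ribosomes was pulled from pooled cerebella and hybridised to Affymetrix arrays. The 15 arrays comprise 3 for each age, namely P0, P7, P15, P21 and P56 (days after birth), and all carry the same transgene. Strain background and sex of the animals are stated in no source used here, and neither arrays of unpurified RNA nor arrays of mice without the tag were used here.

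Contactins are adhesion molecules of the immunoglobulin superfamily that are held to the outer face of the neuronal membrane by a lipid anchor. Contactin-associated proteins, also called Caspr proteins, are transmembrane relatives of the neurexins that bind contactins in the same axonal membrane. On myelinated axons such complexes build the junctions beside the node of Ranvier and hold potassium channels in place next to them, and other members guide axons and shape synapses.

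Before the results, the makeup of the RNA has to be given, since markers of several cell types moved between ages. The Purkinje cell markers, of which 8 of 10 were measured, averaged 9.30 ± 0.02 at P0 and 13.10 ± 0.02 at P7 (log2 signal, SD over 3 arrays), and stayed between 13.05 and 13.25 on all arrays from P7 on. All 8 were higher at P7 than at P0. Over the same step all 9 markers of cerebellar interneurons, all 7 of endothelial and mural cells, all 6 of microglia and all 6 of meningeal cells were lower. So were 5 of 6 markers of oligodendrocyte precursors (median −0.71) and 5 of 6 of brainstem and deep nuclei neurons (−1.11). Markers of astrocytes and Bergmann glia were mixed, with 4 of 7 lower and 2 higher (median −0.51). Of 6 markers of granule cell progenitors and dividing cells, 3 were lower and 1 higher (median −0.11). All 7 oligodendrocyte markers measured and 6 of 9 granule cell markers were higher. The summed level of the interneuron markers ran from 14.04 to 14.08 at P0 and from 11.72 to 11.91 at P7 (log2 of the sum). The part of these shifts in the changes of contactin genes was not tested. In such pooled tissue, fewer cells of a type, less RNA per cell and a changed share of Purkinje cell RNA in the pull-down cannot be told apart. The comparison of P56 with P7 was included because P0 may differ in how much Purkinje cell RNA was captured. Array medians were 7.91 to 7.93 at P0 and 7.59 to 7.60 at P56, and a gene's change over that span is given as deposited unless stated.

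Cntnap1 and Cntn1 encode the pair of axonal proteins that sit together at the paranode, the junction where myelin loops grip the axon. Their RNAs moved in opposite directions from P0 to P7, and as deposited both fell from P21 to P56. The difference between their changes was not tested. Cntnap1 read 8.99, 9.06 and 9.04 on the P0 arrays and 11.22, 11.15 and 11.16 on the P7 arrays. The P7 arrays lay far above the P0 arrays with no overlap. The rise was 2.14 (SE 0.10, limma adjusted p 2.00e-12), or 4.42-fold. Cntnap1 then read 11.08, 11.02 and 10.96 at P15 and 10.80, 10.77 and 11.04 at P21. Neither of these steps passed the test (changes of −0.16 and −0.15, adjusted p 0.303 and 0.356). At P56 it read 10.09, 9.64 and 9.80, all below every P21 array. It fell by 1.02 from P21 (SE 0.10, adjusted p 9.85e-08) and stayed 0.82 above P0 (adjusted p 6.08e-07). Its order of levels was therefore P7, P15 and P21 without a called difference between neighbours, then P56, then P0.

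Cntn1 was highest in the newborn. It read 12.16, 12.20 and 12.14 at P0 and 11.25, 11.26 and 11.22 at P7. It fell by 0.93 (SE 0.07, adjusted p 4.09e-09), and the arrays of both ages did not overlap. From P7 to P21 it stayed between 11.15 and 11.32, and neither step was called (adjusted p 0.728 and 0.634). At P56 it read 10.81, 10.70 and 11.02, below all P21 arrays. The fall from P21 was 0.38 (SE 0.07, adjusted p 2.78e-04) and was lost when array medians were set to 0 (−0.15, adjusted p 0.0868). The P56 level was 1.32 below P0 (SE 0.07), a fall of 1.00 with medians set to 0.

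**Figure D1:**
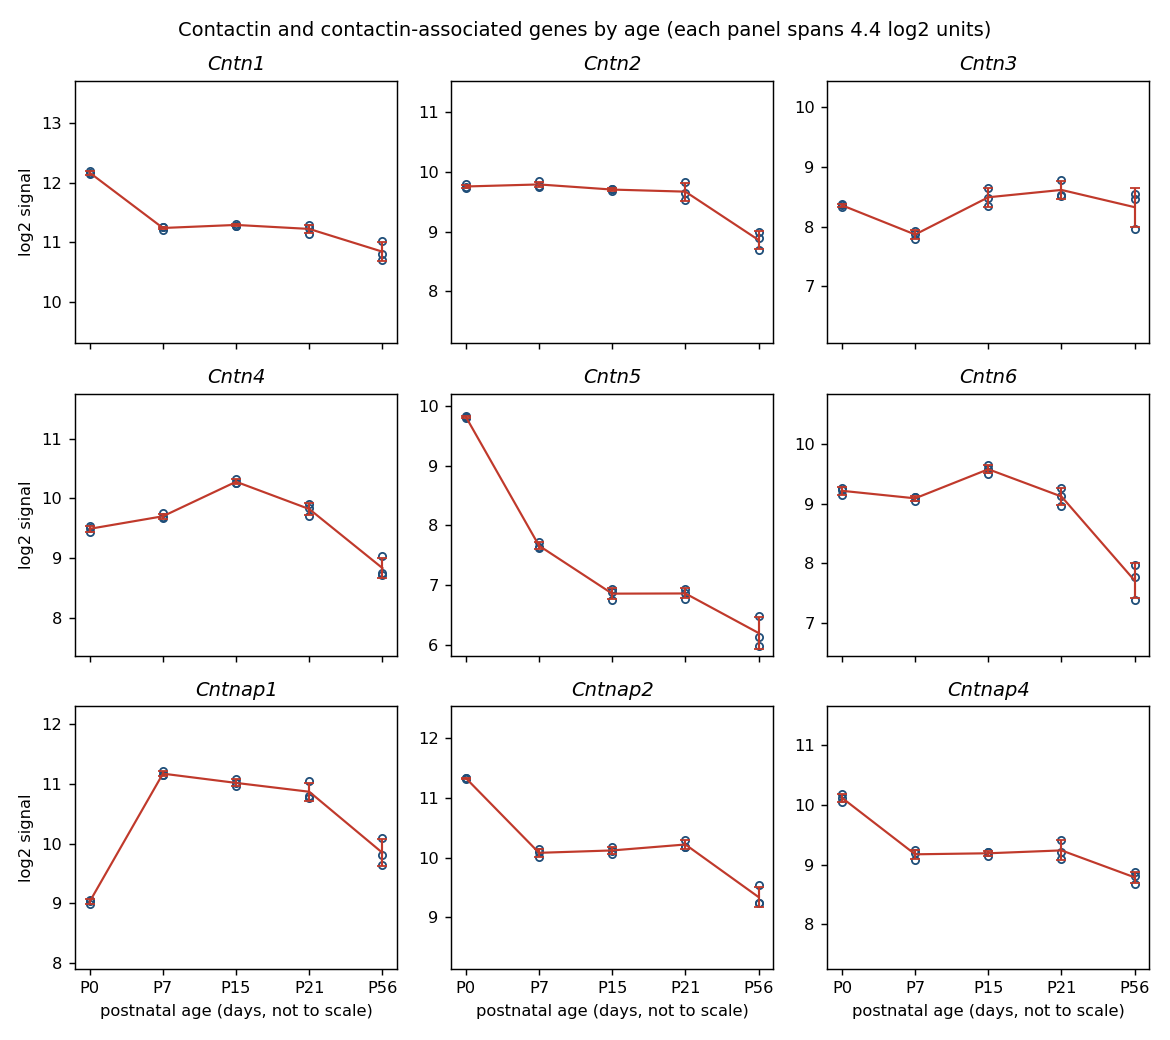
Log2 signal of each of the 9 genes on every array (circles) with the mean and SD of 3 arrays at each age (red line and bars); every panel spans the same number of log2 units, so slopes can be compared. Cntnap1 rose from 9.03 to 11.18 between P0 and P7, Cntn5 fell from 9.82 to 7.66, and Cntn4 and Cntn6 were highest at P15.

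Cntnap2 and Cntn2 encode the other axonal complex, which clusters potassium channels of the Kv1 type in the juxtaparanode beneath the myelin. Cntnap2 read 11.32, 11.34 and 11.34 at P0 and 10.14, 10.09 and 10.00 at P7. All P7 arrays lay below all P0 arrays. It fell by 1.25 (SE 0.08, adjusted p 1.95e-10). It held between 10.00 and 10.30 on the 9 arrays of P7 to P21, and neither step was called. At P56 it read 9.24, 9.23 and 9.54 and had fallen by a further 0.88 (SE 0.08, adjusted p 5.53e-08). From P0 to P56 the fall was 1.99, or 3.98-fold.

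Cntn2, also known as TAG-1, marks growing axons of several neurons and is made by oligodendrocytes too. It did not follow its partner in the first week. Its arrays read 9.73, 9.75 and 9.79 at P0 and 9.77, 9.76 and 9.85 at P7, which overlap. The change was 0.03 (SE 0.08, adjusted p 0.746) and turned negative with quantile normalization (−0.10). P15 and P21 arrays lay between 9.53 and 9.83, with no call for either step. At P56 the arrays read 8.90, 8.70 and 8.99, below all other arrays. Cntn2 fell by 0.81 from P21 (SE 0.08, adjusted p 2.34e-07), by 0.53 with quantile normalization. The difference between the first-week changes of Cntn2 and Cntnap2 was not tested.

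Cntn3, Cntn6 and Cntn4 are paralogous contactins with roles in neurite growth, of which Cntn6 is a ligand of Notch and Cntn4 a partner of the amyloid precursor protein. In the RefSeq gene table (GRCm38.p6) they lie on chromosome 6 in the order Cntn3, Chl1, Cntn6 and Cntn4 with no other protein-coding gene between them. All 3 rose from P7 to P15. The window of 250 bases before to 50 after a listed start is shown for Cntn6 and Cntn4, the neighbours whose highest level fell at P15. Both are from RefSeq, GRCm38.p6, plus strand, chr6:104492794-104493093 and chr6:106118515-106118814, and capitals mark matches to the E-box CANNTG on either strand.
Cntn6: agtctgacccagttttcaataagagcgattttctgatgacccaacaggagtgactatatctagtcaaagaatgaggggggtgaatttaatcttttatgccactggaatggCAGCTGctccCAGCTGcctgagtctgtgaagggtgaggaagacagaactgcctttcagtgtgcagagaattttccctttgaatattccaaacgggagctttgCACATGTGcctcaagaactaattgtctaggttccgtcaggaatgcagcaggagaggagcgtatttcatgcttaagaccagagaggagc
Cntn4: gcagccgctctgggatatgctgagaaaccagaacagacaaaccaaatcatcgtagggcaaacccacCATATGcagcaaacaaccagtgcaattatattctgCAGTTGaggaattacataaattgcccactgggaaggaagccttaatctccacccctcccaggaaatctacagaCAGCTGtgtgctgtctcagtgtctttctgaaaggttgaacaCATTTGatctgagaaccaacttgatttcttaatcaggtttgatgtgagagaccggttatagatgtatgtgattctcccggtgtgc
Each window holds 4 matches, of which a pair overlaps in Cntn6. The windows of other members hold 3 (Cntn5), 1 (Cntn3), 1 (Cntn2), 0 (Cntn1) and 0 (Cntnap2). Where several starts were listed, as the 2 of Cntn4, the most upstream was used. At least 1 match occurs in 72.3% of 32851 such windows, and at least 4, the count of both shown windows, in 6.49%. The other motifs searched on both strands, TATAAA (13.6% of windows), AGGTCA (16.3%) and CCCNNGGG (13.7%), have no match in either window. A match describes letters in the window, not a site in use.

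Cntn4 read 9.44, 9.53 and 9.50 at P0 and 9.66, 9.75 and 9.69 at P7. This small rise of 0.21 (SE 0.08, adjusted p 0.0299) was called, but it was 0.09 with quantile normalization (adjusted p 0.298). It also lost its call without P0 replicate 1 (0.19), P0 replicate 3 (0.21), P7 replicate 2 (0.19) or P7 replicate 3 (0.22). At P15 Cntn4 read 10.26, 10.25 and 10.33, the highest of any age and apart from all other arrays. It rose by 0.58 from P7 (SE 0.08, adjusted p 5.59e-05) and fell by 0.46 to P21 (adjusted p 7.39e-04), when it read 9.91, 9.84 and 9.71. At P56 it read 8.72, 8.75 and 9.03, lower than on any other array. The last step was a fall of 0.99 (SE 0.08, adjusted p 1.48e-08).

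The steps called for Cntn4 after P7 were called for Cntn6 too, in the same directions. It read 9.27, 9.14 and 9.23 at P0 and 9.04, 9.11 and 9.12 at P7, a change that was not called (−0.13, adjusted p 0.351). At P15 it read 9.58, 9.50 and 9.64, above all arrays of the other ages. It rose by 0.49 from P7 (SE 0.11, adjusted p 0.00388) and fell by 0.46 to P21 (adjusted p 0.00851), with arrays at 9.13, 8.97 and 9.26. At P56 its arrays read 7.78, 7.38 and 7.97. No P56 array came within 1 log2 unit of the lowest P15 array. The fall from P21 was 1.41 (SE 0.11, adjusted p 1.20e-08), or 2.66-fold. It was the largest of the 9 genes in that step.

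Cntn3 was the only member of the 9 called higher at P56 than at P7. Its lowest level was at P7, where the arrays read 7.79, 7.93 and 7.88 against 8.37, 8.37 and 8.33 at P0. It fell by 0.49 in the first week (SE 0.12, adjusted p 0.00229). It rose by 0.62 to P15 (adjusted p 0.00137), where the arrays read 8.48, 8.34 and 8.65. At P21 they read 8.79, 8.52 and 8.54. At P56 they spread over 7.95, 8.47 and 8.55, the widest spread of this gene at any age. P56 was 0.46 above P7 (SE 0.12, adjusted p 0.00449) and 0.72 above with medians set to 0. Against P0 the change was not called (−0.03, adjusted p 0.823), and the sign turned with quantile normalization (0.27, adjusted p 0.0471), with medians set to 0 (0.29, adjusted p 0.0365) and without P56 replicate 1 (0.15).

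Cntn5, a contactin known from auditory and other sensory pathways, showed the largest change of the 9. It read 9.79, 9.84 and 9.82 at P0 and 7.63, 7.73 and 7.61 at P7. At P15 it read 6.89, 6.75 and 6.93, and at P21 6.94, 6.77 and 6.86. The first 2 steps were falls and the third was not called. It fell by 2.16 in the first week (SE 0.10, adjusted p 2.71e-12), by 0.80 in the second (adjusted p 2.00e-05) and by 0.66 from P21 to P56 (adjusted p 2.22e-05), or 0.43 with medians set to 0. At P56 it read 5.98, 6.48 and 6.12. The array at 5.98 lay under its own lower quartile (5.99), so the size of the last fall is uncertain. The fall from P0 to P56, 3.62 as measured (SE 0.10), has the same uncertainty.

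Cntnap4, a Caspr protein of presynaptic terminals in interneurons, fell in the first week and again after P21. It read 10.11, 10.06 and 10.19 at P0 and 9.09, 9.19 and 9.24 at P7. The arrays did not overlap, and it fell by 0.95 (SE 0.08, adjusted p 1.46e-08). All 9 arrays of P7 to P21 lay between 9.09 and 9.42, with no call for either step. At P56 it read 8.81, 8.68 and 8.87. That fall of 0.45 from P21 (adjusted p 1.67e-04) stayed called with medians set to 0 (−0.22, adjusted p 0.0224) but not with quantile normalization (−0.16, adjusted p 0.105). Likewise, the fall of 0.39 from P7 was not called with quantile normalization (−0.10) or with medians set to 0 (−0.12).

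**Figure D2:**
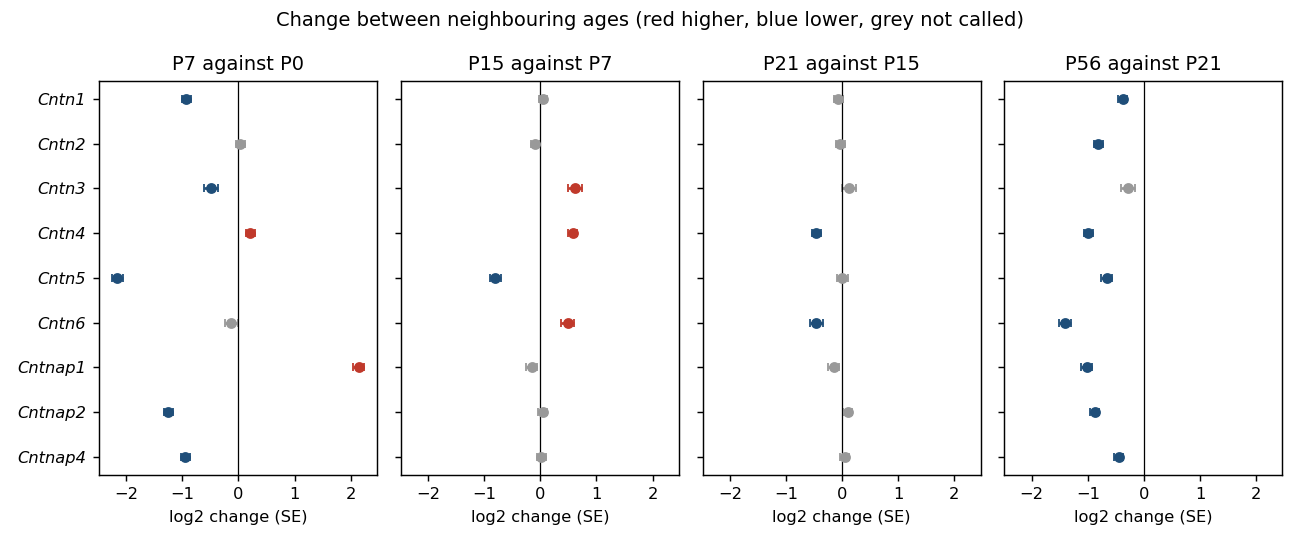
Log2 change of each gene with its standard error in the 4 steps between neighbouring ages, in red where called higher, blue where called lower and grey where not called. In the step from P21 to P56, 8 of 9 genes were called lower (34.3% of all probe sets), with changes from −0.38 (Cntn1) to −1.41 (Cntn6).

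All 9 genes differed between ages (moderated F-test), as did 81.6% of all 22092 probe sets. From P0 to P7, 2 genes rose, 5 fell and 2 were not called, where 62.1% of all probe sets were called, 33.6% higher and 28.5% lower. From P7 to P15, Cntn3, Cntn4 and Cntn6 rose and Cntn5 fell, beside 10.4% of probe sets called higher and 13.6% lower (24% in all). Those 3 rises lay above 97.59% or more of all probe sets in that step. Markers of granule cells rose in it too (7 of 9, median 0.46; summed level 14.29 to 14.36 at P7 and 14.71 to 14.79 at P15), as did 6 of 7 of oligodendrocytes. All 6 markers of granule cell progenitors and dividing cells fell (median −1.71). The part of these markers was not tested. From P15 to P21, Cntn4 and Cntn6 fell, beside 7.16% of probe sets called lower and 10.5% higher (17.7% in all). Markers of brainstem and deep nuclei neurons (5 of 6), oligodendrocyte precursors (4 of 6) and interneurons (4 of 9) rose in it. Those of progenitors and dividing cells (5 of 6) and of granule cells (3 of 9, with 2 higher) fell, and their part was not tested. From P21 to P56, 8 fell and Cntn3 was not called (−0.29, adjusted p 0.0585), where 34.3% of probe sets were called lower and 22.1% higher (56.4% in all). In that step 6 of 9 interneuron markers (median −0.85), 6 of 6 of oligodendrocyte precursors (−0.81), 5 of 6 of brainstem and deep nuclei neurons (−0.78), 6 of 7 of oligodendrocytes (−1.13) and 5 of 9 of granule cells (−0.38) were lower too, while 4 of 8 Purkinje cell markers were higher and 1 lower. The summed level ran from 12.47 to 12.72 at P21 and from 11.38 to 11.53 at P56 for interneurons, and from 11.41 to 11.71 and from 10.61 to 10.71 for precursors. The part of these markers in the late fall was not tested. With array medians set to 0, 7 fell and 22.3% of probe sets were called lower. From P0 to P56, 1 rose, 7 fell and 1 was not called (75.4% called in all, 40.1% higher and 35.3% lower). From P7 to P56, 1 rose and 8 fell (59.6% called, 25.4% higher and 34.2% lower). With medians set to 0, 1 rose, 6 fell and 21.8% of probe sets were called lower. Cntn1 (−0.13, adjusted p 0.112) and Cntnap4 lost their calls under that scaling. With quantile normalization 1 rose and 7 fell. The comparisons share arrays, so their counts do not add independent support to each other.

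Array medians differed between ages. The median array was 0.32 lower at P56 than at P0 and 0.26 lower than at P7. With medians set to 0, the median probe set changed by 0.41 from P0 to P56, 0.27 from P7 to P56 and 0.21 from P21 to P56, against 0.08, 0.0018 and −0.03 as deposited. The share of called probe sets that were higher then went from 53.2% to 70.2% (P56 against P0), from 42.5% to 71.9% (P56 against P7) and from 39.3% to 69.1% (P56 against P21). It went from 43.3% to 62.2% for P15 against P7 and from 59.5% to 45.9% for P21 against P15. Cntn2, Cntn4, Cntn5, Cntn6, Cntnap1 and Cntnap2 kept their called fall from P7 to P56 under both scalings, with medians set to 0 at −0.48 (Cntnap2) to −1.20 (Cntn5).

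Genes that bind the contactins from outside or beside them fell with Cntn1, Cntnap2 and Cntn5 in the first week. Of 12 such partners, 11 were lower at P7 than at P0 and 1 was not called, with a median change of −1.49 against 0.05 over all probe sets. Of all probe sets, 28.5% were called lower in that step and 33.6% higher. Ptprz1, a receptor phosphatase that binds Cntn1, fell by 3.12, and Ptprg, which binds Cntn3 to Cntn6, fell by 2.22. Of the adhesion molecules, Chl1 changed by −2.29, L1cam by −1.76 and Nrcam by −0.95. The matrix proteins Tnc and Tnr changed by −2.28 and −1.22, and the receptor Notch1 by −1.99. The amyloid precursor family fell least, with changes of −0.35 (App), −0.51 (Aplp1) and −0.33 (Aplp2). Neurofascin (Nfasc), which meets the Cntn1 and Cntnap1 complex at the paranode, was not called (0.07, adjusted p 0.562). Most markers of interneurons, oligodendrocyte precursors, brainstem neurons, microglia, vessels and meninges were lower in the same step, as given above. Of 7 astrocyte markers, 4 were lower and 2 higher. The part of all these markers in the falls of the partners was not tested.

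From P7 to P15, 6 of the 12 partners rose, 1 fell and 5 were not called (median 0.21). In that step 10.4% of all probe sets were called higher and 13.6% lower. Tnr rose by 0.70, Ptprz1 by 0.69, Nfasc by 0.39, Chl1 by 0.27, Nrcam by 0.24 and Aplp1 by 0.20, and Tnc fell by 0.92. Aplp1 was not called with quantile normalization (0.15, adjusted p 0.125), which left 5 rises. Chl1, the gene between Cntn3 and Cntn6, thus rose beside its neighbours in this step. It read 11.97 at P0, 9.67 at P7, 9.94 at P15, 9.68 at P21 and 8.39 at P56 (means of 3 arrays). Unlike Cntn6 it was far lower at P7 than at P0, though the difference between them was not tested. From P0 to P56, 11 partners fell, beside 35.3% of all probe sets called lower and 40.1% higher. Nfasc was not called (0.08), though with medians set to 0 it was called higher. Tnc fell by 5.00, to a P56 mean of 5.98 that was close to each array's lower quartile, which makes the size of its fall uncertain.

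Of 18 other adhesion molecules of the immunoglobulin superfamily, 16 fell and 2 rose from P0 to P7 (median −1.45), with 1 rise under quantile normalization. The same counts held from P0 to P56 (median −1.66). Over all probe sets, 28.5% were called lower and 33.6% higher from P0 to P7. From P0 to P56 these shares were 35.3% and 40.1%. The largest falls to P56 were those of the netrin receptor Dcc (−4.95), the Slit receptor Robo1 (−4.43), Alcam (−3.49), the netrin receptor Neo1 (−3.36), Ncam2 (−2.56) and Negr1 (−2.45). Nptn (0.54) and Ntm (0.49) rose to P56, named here after their values were seen. From P7 to P56, 1 of the 18 rose, 12 fell and 5 were not called (median −0.46), beside 34.2% of all probe sets called lower. With medians set to 0, 9 fell and the list median was −0.19, and with quantile normalization 10 fell and it was −0.27.

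Other Caspr genes did not share 1 course. From P0 to P7, Cntnap5b rose by 0.92 and Cntnap5c by 0.42, while Cntnap5a fell by 1.15 and Cntnap3 by 0.88. From P7 to P15, Cntnap5b (0.59) and Cntnap5c (0.42) rose and the others were not called. From P0 to P56, Cntnap5b rose by 1.69, from 8.83 to 10.52, and Cntnap5a fell by 1.69, from 10.06 to 8.38. Cntnap3, Cntnap5a, Cntnap5b and Cntnap5c encode close relatives, and a probe can read more than 1 of them.

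**Figure D3:**
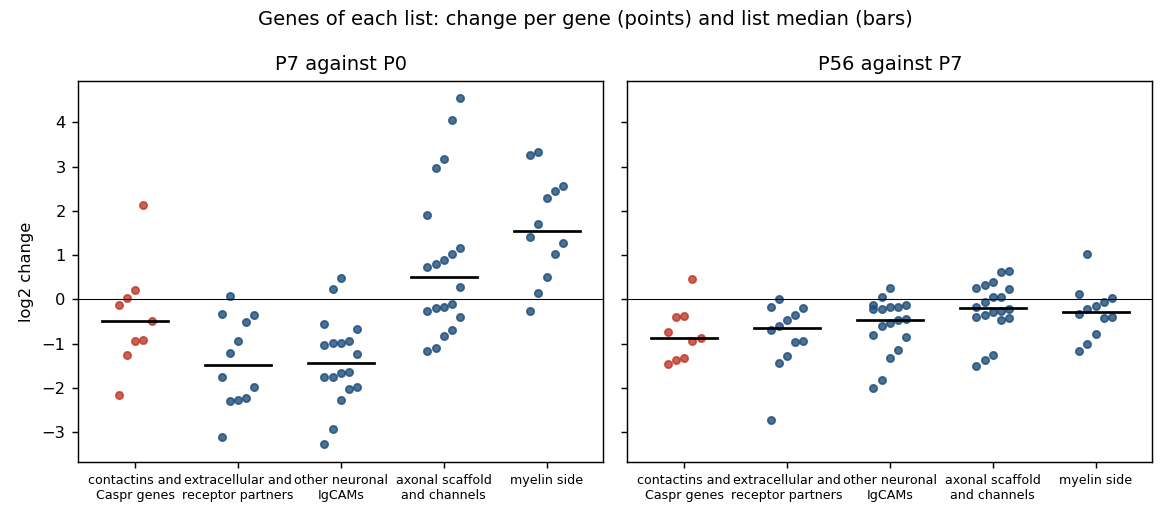
Log2 change of single genes (points) and the list median (bar) for the 9 contactin and Caspr genes and 4 lists of partner genes, from P0 to P7 on the left and from P7 to P56 on the right. On the left, the medians of extracellular partners and other immunoglobulin adhesion molecules are −1.49 and −1.45, and those of axonal scaffold and channels and of the myelin side are 0.51 and 1.55.

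Genes of the axonal scaffold and channels at the node and beside it moved in both directions. Of 20 measured, 11 rose, 7 fell and 2 were not called from P0 to P7 (median 0.51). In that step 33.6% of all probe sets were called higher and 28.5% lower. From P0 to P56, 10 rose, 9 fell and 1 was not called (median 0.22), beside 40.1% of all probe sets called higher and 35.3% lower. That median was 0.54 with array medians set to 0, and the one from P0 to P7 was 0.33 with quantile normalization. Between P0 and P56 the sodium channel subunits Scn4b and Scn2b rose by 5.17 and 3.57 and the potassium channel subunit Kcnab1 by 4.32. Kcna1, a channel held in place by the Cntn2 and Cntnap2 complex, rose by 2.73 over that span. The spectrin Sptbn1 fell by 2.62 and the secreted Lgi1 fell by 2.09 over the same span. The P0 mean of Scn4b, 5.77, was under the lower quartile of each of those arrays, so its rise is uncertain in size. Kcna1 went from 8.70 at P0 to 11.68 at P7 while Cntnap2 went from 11.33 to 10.08. Epb41l3, which encodes the protein that ties Cntnap1 and Cntnap2 to the cytoskeleton, rose by 0.89 from P0 to P7, and it was named here after its values were seen.

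On the myelin side, 10 of 12 genes rose, 1 fell and 1 was not called from P0 to P7 (median 1.55), beside Cntnap1. From P7 to P15, 9 rose, 1 fell and 2 were not called (median 0.75), a step in which Cntnap1 was not called. From P21 to P56, 10 fell and 2 were not called (median −1.08), when Cntnap1 fell by 1.02. Over all probe sets, 33.6% were called higher from P0 to P7 and 10.4% from P7 to P15. From P21 to P56, 34.3% were called lower. Cadm4, the gene that fell from P0 to P7, is also counted in the axonal list. To P56 from P0, Ermn rose by 3.61, Mobp by 3.04, Mag by 2.39, Mog by 2.32, Ugt8a by 1.95 and Opalin by 1.83. Ermn and Opalin were under the lower quartile of each array at P0. All 7 oligodendrocyte markers measured are among the 12 genes of the myelin side and add no separate observation. These markers averaged 7.26 at P0, 9.55 at P7, 10.20 at P15, 10.47 at P21 and 9.25 at P56. Their summed level ran from 11.31 to 11.34 at P0, 12.96 to 13.14 at P7 and 12.43 to 12.52 at P56. Their part in the course of Cntnap1 and Cntn2 was not tested.

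Across the 15 arrays, which fall into 5 ages, 7 of the 9 genes can be described as 2 sets by their course, though no clustering was run. Cntn1, Cntnap2, Cntnap4 and Cntn5 correlated with each other at 0.93 to 0.98 (Pearson), all 4 being highest at P0. Cntn6 correlated with Cntn2 at 0.94 and with Cntn4 at 0.91, and Cntn2 with Cntn4 at 0.77. The sets were not sharply apart, since Cntnap2 correlated with Cntn2 at 0.70 and with Cntn6 at 0.64. Cntn4 correlated with the genes of the first set at 0.06 (Cntn5) to 0.32 (Cntnap2). Cntn2 had its highest mean at P7, not at P15. Of the 36 pairs, 29 were positive and 7 negative, and 0 were under −0.8. These are descriptions, since ages rather than single arrays set the values.

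The 3 genes most like each member were taken from 6507 genes whose age means spanned at least 1 log2 unit, by Pearson correlation over the 15 arrays. Cntn1 was closest to Sema6d (0.997), Ephb1 (0.994) and Tgfbr1 (0.994). Cntnap2 was closest to Syt1 (0.997), a calcium sensor of vesicle release, Tmem43 (0.996) and Chrm3 (0.994). Cntnap4 was closest to Myo9b (0.993), Pitpnc1 (0.991) and the matrix proteoglycan Bcan (0.989). Cntn5 was closest to Zim1 (0.996), Rgs9 (0.993) and Cxadr (0.993). All 12 of these genes were highest at P0 and lowest at P56.

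The remaining members had other neighbours. Cntn4 was closest to the protocadherin Pcdhb15 (0.986), Plxdc2 (0.981) and the protocadherin Pcdhb16 (0.981). Cntn6 was closest to Gdpd1 (0.990), the protocadherin Pcdhb21 (0.983) and Lrpap1 (0.981). These 6 genes had their highest mean at P15, as Cntn4 and Cntn6 did. Cntn2 was closest to Zc3h3 (0.983), Igsf9b (0.982) and Ggt7 (0.981), each lowest at P56. Cntnap1 was closest to Mrpl16 (0.991), Gsto1 (0.989) and Pex16 (0.988), each of which rose from P0 to a highest mean at P7. Cntn3 had no close match, with Calb2 (0.814), Lin7a (0.765) and Sntg1 (0.714) the nearest. For Calb2 the lowest mean was at P7 as well (10.81) and the highest at P21 (11.90).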

How the data were processed

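RNA purified through tagged ribosomes was measured on 15 Affymetrix arrays. Each deposited value is the log2 signal of a probe set, which the authors had summarised from probes and normalized. The submitters' processing notes name Affymetrix Power Tools. No source used here states its version, the algorithm, the background correction or the log base. Base 2 was taken from the range of the values. Arrays have no depth, and precision is limited by their number. No array date is given, so age and any batch that follows it cannot be told apart.

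All 22092 probe sets were fitted with limma 3.58.1 in R 4.3.3, with a mean per age over all 15 arrays and no covariate (10 residual and 6.5 prior degrees of freedom). The contrasts were the 4 steps between neighbouring ages, P56 minus P0 and P56 minus P7, with an F-test over the 4 steps. Tests were two-sided, with Benjamini-Hochberg adjustment over all probe sets and calls at an adjusted p under 0.05. With 3 arrays per age, the smallest p of an exact two-sided permutation test is 0.1. The labels do not say whether the 3 arrays of each age were made from separate pools, and if they were not, the p-values cover technical spread alone.

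The annotation (2016) paired 20996 probe sets with 1 symbol and 91 with several, and 1005 were unlisted. Of 20959 Entrez numbers looked up in RefSeq, 0 changed symbol. The brightest probe set stood for a gene. The members, the partner and marker lists and the tests were chosen with earlier results of these data known. Named were the 9 members, all extracellular partners, up to 6 called genes per other list with the largest change from P0 to P56, and the 3 most similar genes per member, passing over predicted and unnamed genes. The fit was tested on simulated data for P7 against P0 over 22092 probe sets. It recovered 10% of shifts of 0.25, 80% of 0.5 and 100% of 1 and of 2 (50 genes each), with 2 false calls among 21892. Most simulated probe sets were thus unshifted, whereas 62.1% were called in the real step. Recovery and false calls in the real data can therefore differ from these. The fit was repeated with a replicate block, array medians set to 0, quantile normalization, a robust trended prior, array weights, the dimmest 50% of probe sets removed, 1 probe set per gene, the mean of a gene's probe sets, a minimum change of 1 and without each array. Promoter windows were listed for 7 of the 9 genes. Plots used matplotlib 3.10.9 (Python 3.11.15).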

Additional observations from a re-analysis of the deposited data

How the results depend on the processing

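Counts of called members stayed within 1.5 times of those reported under every alternative except a minimum change of 1. With that minimum the counts were 3 (P7 against P0), 0 (P15 against P7, where limma's adjusted p alone called 4 members), 0 (P21 against P15, 2 without the minimum), 2 (P56 against P21), 5 (P56 against P0) and 3 (P56 against P7). Leaving out 1 array gave 6 to 7, 4 to 4, 2 to 2, 8 to 9, 8 to 8 and 9 to 9 called members in the same order, and 9 for the F-test. Removing the dimmest 50% of probe sets removed Cntn5, so that this alternative gives no value for it. Of 1236 recomputed single changes, 1210 kept their direction and side of the threshold and 13 changed sign. With the direction kept, 10 lost a call and 3 gained one. Among the sign changes, that of Cntn3 from P0 to P56 was called with quantile normalization and with medians set to 0. No change that was called as deposited changed sign. Sign changes were those of Cntn2 from P0 to P7 with quantile normalization (−0.10) and from P15 to P21 without P21 replicate 1 (0.0355; −0.12 to 0.0355 over the arrays left out). Cntn3 changed sign from P21 to P56 (0.0097) and from P0 to P56 (0.27) with quantile normalization, and from P0 to P56 with medians set to 0 (0.29) and without P56 replicate 1 (0.15; −0.15 to 0.15 over the arrays left out). Cntn5 changed sign from P15 to P21 with quantile normalization (−0.0151), with medians set to 0 (−0.0361), and without P15 replicate 2 (−0.0494), P21 replicate 1 (−0.0369) or P21 replicate 3 (−3e-04), with up to 0.0467 over the other arrays left out. Cntnap4 did so from P7 to P15 without P7 replicate 1 (−0.0266 to 0.0516 over the arrays left out) and from P15 to P21 without P21 replicate 3 (−0.042 to 0.12). The cause was not tested. Cntn3 gained a call from P21 to P56 with the dimmest probe sets removed (adjusted p 0.0440) and without P56 replicate 2 (−0.36) or 3 (−0.40). Most same-numbered arrays did not deviate together: 5 of 30 pairs correlated above 0.1 (range −0.31 to 0.45). Each array was set against the 3 arrays of each other age, and it correlated best with its own number in 19 of 60 cases. Between P15 and P21 the correlation was 0.33 for replicate 1, 0.45 for replicate 2 and 0.02 for replicate 3. The replicate block called 7, 4, 2, 8, 8 and 9 members in the same order and changed no call of a member.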
